A study of Mus musculus with 12 samples.

Results

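Expression of 9 genes for receptors of acetylcholine was measured in mouse auditory cortex, and was compared between slices bathed in control artificial cerebrospinal fluid (aCSF) and slices bathed in a stimulating cocktail. The genes were 5 muscarinic receptors (Chrm1, Chrm2, Chrm3, Chrm4 and Chrm5) and 4 nicotinic receptor subunits (Chrna4, Chrna5, Chrna7 and Chrnb2), and they were taken by name from the 20989 loci measured. Coronal acute slices of 6 C57bl6/J mice, 4 weeks old, with no transgene in the labels, were cut along the midline. One hemisphere of each mouse was kept for 1 h in fresh aCSF (control, n = 6) and the other for 1 h in cocktail aCSF (cocktail, n = 6). The study's methods place another 1 h of rest in plain aCSF after this for both hemispheres, which the labels do not mention. The cocktail held 50 µM bicuculline methiodide, a blocker of GABA-A receptors, together with 100 µM norepinephrine, 50 µM carbamoylcholine, 100 µM dopamine, 100 µM serotonin and 40 µM ascorbic acid. Carbamoylcholine (carbachol) is an agonist of both muscarinic and nicotinic receptors, so the cocktail contained a ligand of the proteins these genes encode. All slices, control included, had first been cut and rested in a dissection buffer with 110 mM choline chloride. The auditory cortex was then dissected from each hemisphere, so every library holds all cell types of the tissue, and single effects of the agents in the cocktail cannot be told apart.

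Acetylcholine reaches the cortex mainly from neurons whose cell bodies lie in the basal forebrain, and it is known for its part in arousal, attention and the plasticity of auditory cortical responses. Muscarinic receptors are coupled to G proteins. The M1, M3 and M5 receptors act through Gq and phospholipase C, whereas M2 and M4 act through Gi/o and lower cyclic AMP. Nicotinic receptors are cation channels built of several subunits. In cortex the alpha4 and beta2 subunits form the main heteromeric channel, alpha5 joins it as an accessory subunit, and alpha7 can form a channel from copies of itself.

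The muscarinic genes lay at chr19:8664005-8683602 (Chrm1), chr6:36388084-36524774 (Chrm2), chr13:9876613-10360803 (Chrm3), chr2:91922189-91929829 (Chrm4) and chr2:112479072-112480817 (Chrm5) of the mm10 build. Each of the 5 has its whole coding sequence in 1 exon. The nicotinic genes lay at chr2:181022311-181039177 (Chrna4), chr9:54980880-55007779 (Chrna5), chr7:63098692-63212526 (Chrna7) and chr3:89753448-89764632 (Chrnb2). Their coding sequences are split over 7, 6, 10 and 6 exons. Chrna5 is followed on the same chromosome, after 3563 bases, by Chrna3, and Chrna3 by Chrnb4 after another 1596 bases. In the GENCODE M21 annotation, exons of Chrm1 overlap Gm22820 and exons of Chrm2 overlap 9330158H04Rik, both on the opposite strand. The kit marks strand, but whether the FPKM estimate used it is not given in the sources used here. For the other 7 genes no exon of another gene overlapped.

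RefSeq promoter windows of the GRCm38.p6 assembly, each from 250 bases before to 50 bases after a transcription start, were at hand for 8 of the 9 genes (all but Chrm1). The start lay at the end of the locus in the expression files for all 8, and Chrna5 had a second window further in. The windows differed widely in CG dinucleotides. Chrna7 held 35, Chrna4 33, Chrm4 30, Chrm2 16, Chrnb2 12, Chrm3 11, the first window of Chrna5 5, its second window 25 and Chrm5 3, against a median of 7 over 32544 distinct windows of the genome. Chrm4 and Chrm5 are shown here because their windows are CG-rich and CG-poor and lie on the same chromosome. They belong to a highly and a barely expressed muscarinic gene, and each CG is in capitals. The Chrm5 locus spans 1746 bases for 1596 bases of coding sequence, and whether its annotated start is where transcription begins was not tested. The pair was chosen after the expression levels were seen. The windows are chr2:91921939-91922238 on the plus strand and chr2:112480768-112481067 on the minus strand, written 5′ to 3′.
Chrm4: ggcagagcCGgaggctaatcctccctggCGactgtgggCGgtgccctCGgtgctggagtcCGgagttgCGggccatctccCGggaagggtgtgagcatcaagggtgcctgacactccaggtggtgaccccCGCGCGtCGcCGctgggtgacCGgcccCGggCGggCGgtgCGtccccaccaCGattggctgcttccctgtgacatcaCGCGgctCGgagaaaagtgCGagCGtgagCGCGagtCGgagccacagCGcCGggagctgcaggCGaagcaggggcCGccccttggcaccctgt
Chrm5: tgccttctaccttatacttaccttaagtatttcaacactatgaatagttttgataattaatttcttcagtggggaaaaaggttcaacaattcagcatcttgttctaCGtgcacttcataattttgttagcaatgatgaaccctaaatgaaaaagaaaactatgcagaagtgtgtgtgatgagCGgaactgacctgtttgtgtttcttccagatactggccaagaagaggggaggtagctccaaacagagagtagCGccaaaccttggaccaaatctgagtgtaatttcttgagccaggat
The GC content was 70.7% in the Chrm4 window and 39.0% in the Chrm5 window.

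The windows were also searched on both strands for 5 short motifs, chosen after the expression values were known. The cyclic AMP response element TGACGTCA was in 0 of the 8 genes' windows (1.80% of all windows hold it), the AP-1 motif TGANTCA in 0 (7.79%) and the TATA motif TATAAA in 0 (13.6%). The GC box GGGCGG was in the windows of 6 genes (35.9% of all windows), for Chrna5 in its second window only. The Egr motif GCGNGGGCG was in 1 (5.60%), that of Chrna7, where it began at position -81 from the start and did not overlap the GC box of that window. The Chrna7 window, chr7:63212477-63212776 on the minus strand, is shown because it is the one with this match, which is in capitals.
Chrna7: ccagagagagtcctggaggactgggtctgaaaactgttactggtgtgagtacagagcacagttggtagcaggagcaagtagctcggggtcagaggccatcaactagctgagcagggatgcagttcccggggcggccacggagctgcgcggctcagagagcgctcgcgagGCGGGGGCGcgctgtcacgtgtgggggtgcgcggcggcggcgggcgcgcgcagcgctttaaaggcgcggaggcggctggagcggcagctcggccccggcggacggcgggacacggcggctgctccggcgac
A match of this kind describes the letters only.

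Levels were read as FPKM, fragments scaled by transcript length and library size, which allows genes to be compared per length. Chrm1, the main Gq-coupled muscarinic receptor of cortical pyramidal cells, was the highest of the 9. It stood at 39.09, 38.12, 34.63, 36.19, 34.50 and 37.60 FPKM in the control hemispheres of mice 1 to 6. The mean was 36.7 ± 1.89 FPKM (SD, n = 6), higher than at 91.1% of all loci.

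Chrm4, a Gi/o-coupled receptor best known from striatal neurons, came next, with 29.97, 27.14, 20.64, 21.87, 22.30 and 23.65 FPKM in control mice 1 to 6 (mean 24.3 ± 3.58). Its spread was wider than that of Chrm1, with mice 1 and 2 above the other 4. Chrm3, which is also Gq-coupled, was at 19.43, 20.76, 19.75, 22.50, 19.33 and 21.85 FPKM (20.6 ± 1.33), so its range overlapped that of Chrm4.

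Chrm2, the Gi/o-coupled receptor known as a presynaptic autoreceptor on cholinergic terminals, was far lower, at 3.22, 3.42, 3.47, 2.75, 2.53 and 2.67 FPKM (3.01 ± 0.408). Mice 1 to 3 lay above mice 4 to 6 in control. Chrm5, known from dopamine neurons of the midbrain, was near the limit of these libraries, with 0.285, 0.258, 0.314, 0.517, 0.674 and 0.105 FPKM (0.359 ± 0.203). These values rest on 12, 7, 9, 13, 18 and 2 reads, and in the library with 2 reads the exact Poisson 95% interval ran from 0.0128 to 0.381 FPKM.

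Among the nicotinic subunits, Chrna4 and Chrnb2, which encode the alpha4 and beta2 subunits, were the highest and lay close together. Chrna4 was at 10.97, 11.10, 11.31, 10.60, 10.06 and 14.27 FPKM in control mice 1 to 6 (11.4 ± 1.48), with mouse 6 above the other 5. Chrnb2 was at 9.73, 9.48, 9.80, 10.65, 9.86 and 11.33 FPKM (10.1 ± 0.706), and mouse 6 was again the highest. The ratio of Chrna4 to Chrnb2 was 1.12 ± 0.0987 in control and 1.12 ± 0.0931 in cocktail libraries, so the transcripts of the pair were near parity per length in both groups.

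Chrna7, the gene of the alpha7 subunit, was at 5.75, 5.72, 5.80, 6.29, 6.84 and 5.49 FPKM in control (5.98 ± 0.496), below both in all 6 libraries. Chrna5, the accessory alpha5 subunit, which is known in cortex from deep-layer pyramidal cells, was at 0.582, 0.842, 1.02, 0.928, 1.14 and 0.715 FPKM (0.871 ± 0.204). Its values came from 22 to 49 reads per control library.

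The order of the means in control was therefore Chrm1, Chrm4, Chrm3, Chrna4, Chrnb2, Chrna7, Chrm2, Chrna5 and Chrm5. Of the 8 pairs of neighbours, 5 had ranges that did not overlap. Chrm4 exceeded Chrm3 in 5 of 6 control libraries and Chrna4 exceeded Chrnb2 in 5 of 6. Neither pair reached a p under 0.05 (exact two-sided sign-flip permutation test, p = 0.0625 for each, and 0.0625 when adjusted over the 8 pairs). Chrna5 and Chrm5 overlapped in range, but Chrna5 was the higher in 6 of 6 libraries. That pair and the other 5 each reached p = 0.03125 in the same exact test, the smallest that 6 libraries allow, and 0.0417 after adjustment. The neighbours and the direction of each pair were set by the same values. For pairs with separate ranges, 6 of 6 libraries and the smallest p follow from the ranges alone. These p-values are therefore not independent support for the order. In the cocktail libraries the means stood in the same order, and there Chrm4 was above Chrm3 in 6 of 6 and their ranges did not overlap. Chrna4 was above Chrnb2 in 6 of 6 cocktail libraries, with ranges that overlapped, whereas Chrna5 was above Chrm5 in 5 of 6.

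**Figure D1:**
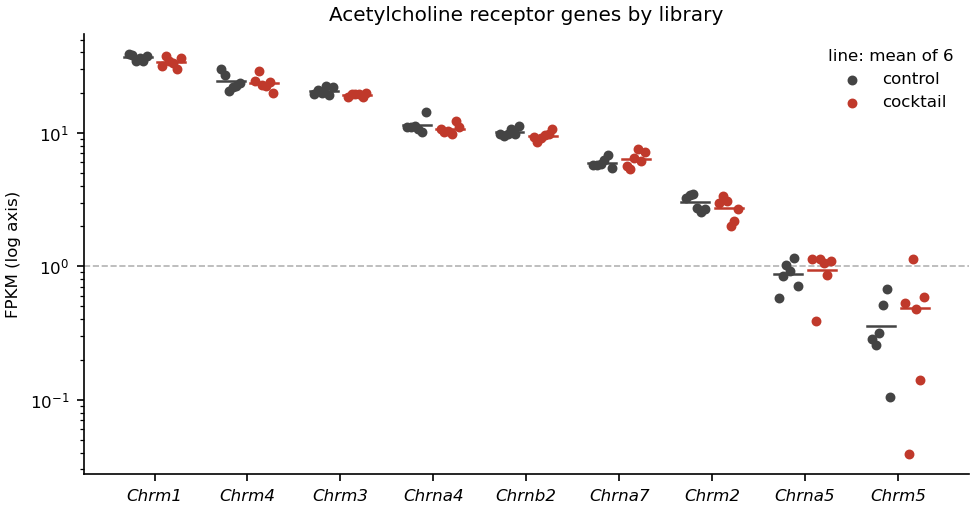
FPKM on a log axis (vertical) of the 9 receptor genes (horizontal, in the order of their control means), 1 point per library and a line at the mean of 6, grey for control and red for cocktail; the dashed line marks 1 FPKM. Levels span from 36.7 FPKM for Chrm1 to 0.359 for Chrm5 in control, and the 2 groups overlap for each gene.

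Summed per library, the 5 muscarinic genes reached 84.9 ± 5.36 FPKM in control and 80.2 ± 5.07 in cocktail libraries, and the 4 nicotinic genes 28.4 ± 1.76 and 27.5 ± 1.98. Muscarinic transcripts were thus 3.00 ± 0.284 times as abundant per length as these nicotinic ones in control and 2.93 ± 0.398 times in cocktail. The Gq-coupled genes made up 68.0% ± 2.53 of the muscarinic sum in control and 67.0% ± 2.85 in cocktail. Chrm1 alone made up 43.2% ± 0.629 in control, with a range of only 42.5% to 44.0%, and 42.3% ± 2.02 in cocktail, with a range of 40.3% to 45.8%. These sums are descriptions, and no test was made on them. They are shares of transcripts and say nothing of the receptor protein.

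The comparison of the hemispheres asked whether an hour in the cocktail was accompanied by a change in the transcripts of these receptors. None of the 9 was called higher or lower. The test was limma on log2(FPKM + 1), paired by mouse, with p-values adjusted over the 12032 loci whose mean was at least 1 FPKM. Of the 7 receptor genes that reached this level, 0 were called at an adjusted p under 0.05, where 180 of the 12032 loci (1.50%) were called, 147 higher and 33 lower. At an unadjusted p under 0.05 stood 1 of the 7, Chrm1, against 8.05% of all loci, and voom on reads called 0 of the 7, with 1 (Chrm3) at an unadjusted p under 0.05, where it called 0.998% of 12030 loci and had 11.2% at an unadjusted p under 0.05. In the same fit Fos, an immediate early gene of neuronal activity, was higher by 0.99 on the log2 scale (SE 0.079, adjusted p = 2.92e-05).

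Chrm1 was at 31.54, 37.69, 34.35, 33.47, 30.25 and 36.42 FPKM in the cocktail hemispheres of mice 1 to 6 (33.9 ± 2.83). Each value was below that of the other hemisphere of its mouse, by as little as 0.012 and as much as 0.30 on the log2(FPKM + 1) scale, but the groups overlapped. The fitted difference was -0.11 (SE 0.0503, 95% interval -0.22 to -0.0012), with an unadjusted limma p of 0.048 and an adjusted p of 0.612. The exact sign-flip test over the 6 mice gave p = 0.03125, the smallest it can give. Mouse 1 had the largest difference. Its control library stood apart, with a summed FPKM of 290155 against 306085 to 321723 in the other control libraries, and the part of this in the Chrm1 difference was not tested. Without mouse 1 the Chrm1 difference was -0.073, with an unadjusted limma p of 0.0985, and the unadjusted p also rose above 0.05 without mouse 4, 5 or 6. With all 6 mice and the libraries scaled by the median of ratios, the Chrm1 difference was -0.120, with an unadjusted limma p of 0.0533.

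Chrm3 was at 18.41, 19.64, 19.69, 19.36, 18.69 and 19.80 FPKM in cocktail (19.3 ± 0.579), again below control in 6 of 6 mice. The cocktail libraries were closer to each other than the control ones, and 2 control libraries, of mice 4 and 6, stood above 21 FPKM. The difference was -0.091 (SE 0.0461, 95% interval -0.19 to 0.010), with an adjusted p of 0.684 in limma and 0.338 in voom.

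Chrm4 went in different directions in different mice, with 24.40, 29.02, 22.69, 22.47, 23.87 and 19.99 FPKM in cocktail (23.7 ± 3.00). It was lower in mice 1 and 6 and higher in the other 4, so the fitted -0.027 (SE 0.0640, 95% interval -0.17 to 0.11, limma adjusted p = 0.956) took the opposite sign without mouse 1 or without mouse 6. Summed striatal markers were at 65.8 FPKM in the control library of mouse 1, where Chrm4 was highest, and at 77.6 to 99.1 in the other control libraries. In cocktail they were at 82.2 to 90.2. Of the 9 striatal markers 8 were tested, 5 lay below 0 and 0 were called, and their part in the Chrm4 values was not tested.

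Chrm2 was at 2.98, 3.35, 3.08, 2.02, 2.20 and 2.68 FPKM in cocktail (2.72 ± 0.520). It was below control in 5 of 6 mice, mouse 6 being level, and mice 4 and 5 were the lowest. The difference was -0.12 (SE 0.0599, 95% interval -0.25 to 0.016), with an adjusted p of 0.693 in limma, and without mouse 4 it was -0.076. Differences between mice exceeded those between the hemispheres of a mouse for this gene (SD of 0.171 and 0.0801 on the log2 scale).

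Chrna4 was at 10.63, 10.11, 10.33, 9.87, 12.18 and 10.96 FPKM in cocktail (10.7 ± 0.830). It was below control in 5 of 6 mice and above it in mouse 5, and the largest negative difference was that of mouse 6. The difference was -0.080 (SE 0.0688, 95% interval -0.23 to 0.071), with an adjusted p of 0.857 in limma. Without mouse 6 it was -0.025 and without mouse 5 it was -0.15, and the adjusted p was 0.974 and 0.529.

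Chrnb2, its partner, was at 9.29, 8.52, 9.15, 9.70, 9.73 and 10.76 FPKM in cocktail (9.53 ± 0.749). Every value was below that of the same mouse in control, by 0.017 to 0.14 on the log2 scale, although the groups overlapped. The difference was -0.083 (SE 0.0469, 95% interval -0.19 to 0.020), with an adjusted p of 0.743 in limma and an exact sign-flip p of 0.03125.

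Chrna7 was at 5.59, 5.34, 6.44, 7.54, 6.20 and 7.18 FPKM in cocktail (6.38 ± 0.865), higher in 3 mice and lower in 3. Its difference was 0.076 (SE 0.0689, 95% interval -0.075 to 0.23, limma adjusted p = 0.872), the one positive value among the 7 genes tested. It was 0.024 without mouse 6, 0.045 without mouse 4 and 0.12 without mouse 5.

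Chrna5 and Chrm5 had means under 1 FPKM and were tested in the fit with no filter on level, which called 123 of 17477 loci (0.704%) and neither of these. Chrna5 was at 1.13, 0.387, 1.13, 1.06, 0.854 and 1.10 FPKM in cocktail (0.943 ± 0.291), with mouse 2 apart from the other 5. Its difference was 0.046 (SE 0.103, 95% interval -0.19 to 0.28, limma adjusted p = 0.954). Chrm5 was at 0.532, 0.0391, 1.14, 0.478, 0.140 and 0.589 FPKM in cocktail (0.486 ± 0.390), from 16, 1, 31, 12, 4 and 18 reads, and it was lower in 3 mice and higher in 3. Its difference was 0.10 (SE 0.153, 95% interval -0.25 to 0.45, limma adjusted p = 0.928). Its 6 differences had an SD of 0.480, which is 2.94 times that expected from counting its reads.

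**Figure D2:**
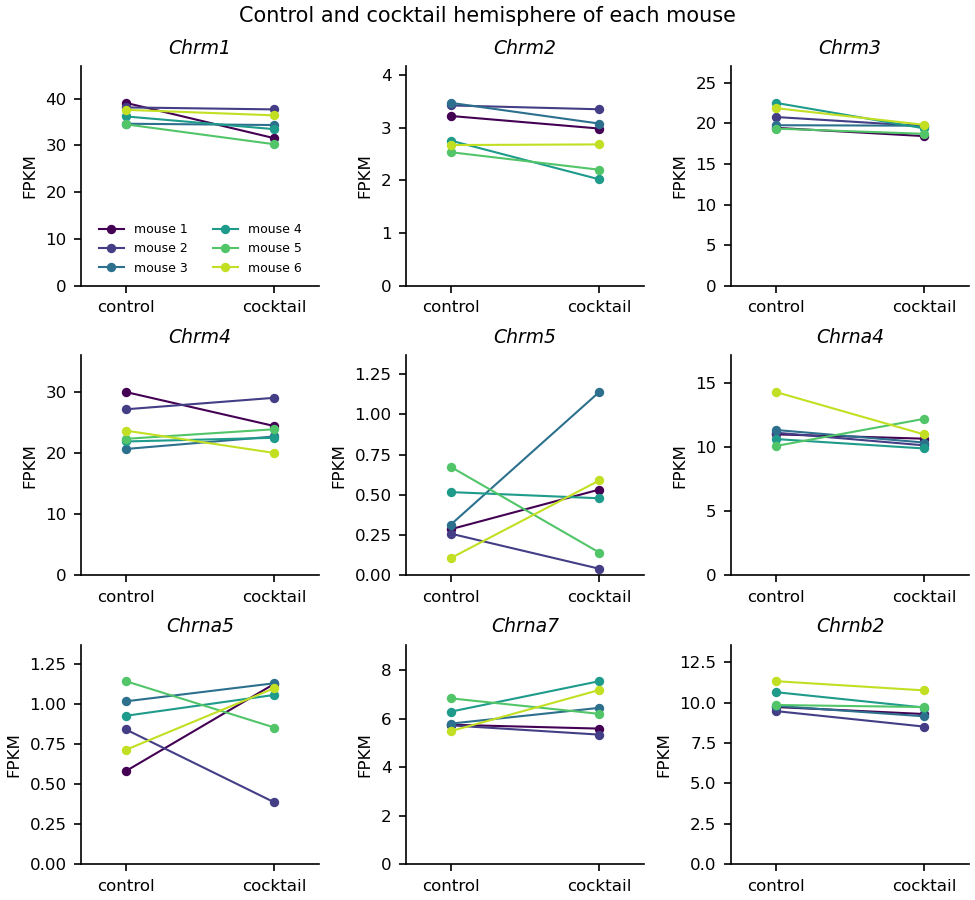
FPKM (vertical, from 0, own scale per gene) in the control and cocktail hemisphere of each mouse (horizontal), 1 line per mouse, for the 9 receptor genes. Lines slope downward in 6 of 6 mice for Chrm1, Chrm3 and Chrnb2 and in 5 of 6 for Chrm2 and Chrna4. Slopes are mixed for Chrm4, Chrm5, Chrna5 and Chrna7.

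Across the 7 genes tested, 6 of the fitted differences were below 0, where 45.6% of all loci were. Their median was -0.083, against 0.0076 for all loci tested. Chrm1, Chrm3 and Chrnb2 were lower in all 6 mice, 3 of the 7, where 2.66% of all loci were lower in all 6. When the libraries were scaled by the median of ratios instead, 1 of the 7, Chrm1, remained lower in all 6 mice, and 3.08% of all loci did. The fitted differences of the 6 genes below 0 were then further from 0, as for Chrm1 (-0.120), Chrm3 (-0.099) and Chrnb2 (-0.091). That of Chrna7 was 0.068, and the median of all loci tested was 0.0001. With FPKM as deposited, the 95% intervals of the 7 genes ran from 0.843 to 1.17 times the control level on the FPKM + 1 scale. Changes larger than these lay outside the 95% interval of every gene tested. In bulk tissue, fewer cells of a type and less RNA per cell cannot be told apart.

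The spread of the differences between mice was set against what counting alone would give. Chrm1 was read most deeply, with 2772 to 6514 reads per library and a counting error of 1.24% to 1.90%. Its 6 differences had an SD of 0.114, which is 3.51 times the value from counting. This ratio was 2.94 for Chrm5, 2.81 for Chrna4, 2.78 for Chrm4, 2.08 for Chrna5 and 1.46 for Chrna7, whereas for Chrm3 (1.15), Chrm2 (0.732) and Chrnb2 (0.714) it was near or under 1. Chrm2 had only 62 to 158 reads per library and a counting error of 7.96% to 12.7%.

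**Figure D3:**
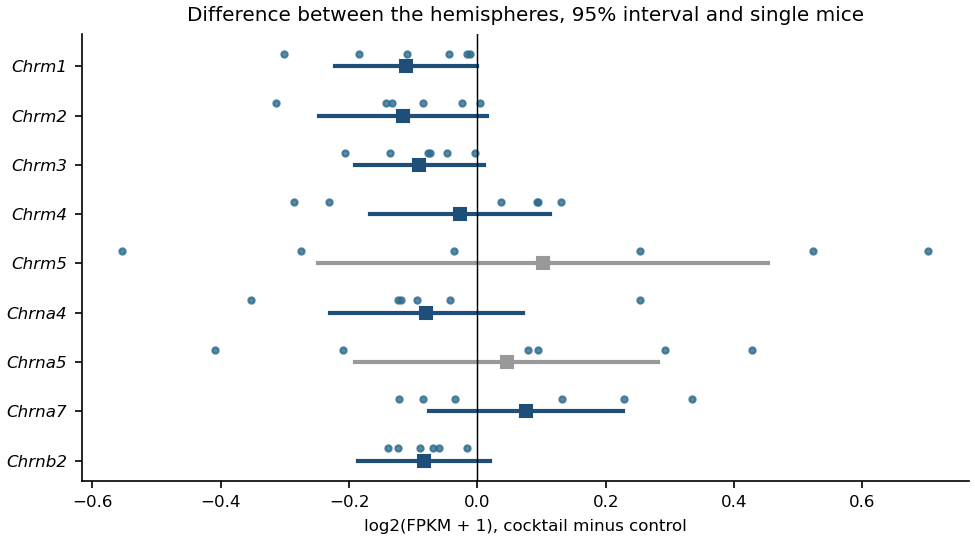
Difference in log2(FPKM + 1), cocktail minus control (horizontal), for the 9 receptor genes (vertical): squares are fitted values with 95% intervals, small points the 6 single mice, and grey marks Chrm5 and Chrna5, fitted with no filter. The intervals of Chrm5 (-0.25 to 0.45) and Chrna5 (-0.19 to 0.28) are the widest, and of the 9 only that of Chrm1 ends below 0, at -0.0012.

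The genes around the receptors were looked at by 6 lists with 74 measured genes, of which 50 were tested. Of these 0 were called and 0 stood at an unadjusted p under 0.05 in limma, and voom called 0 with 3 at an unadjusted p under 0.05. Over all loci the shares were 1.50% and 8.05% in limma and 0.998% and 11.2% in voom. Differences ran from -0.087 to 0.17, with 32 of the 50 below 0, a median of -0.016 and a smallest adjusted p of 0.693.

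The other nicotinic subunits were low, and none of the 12 reached a mean of 1 FPKM. Chrnb3, the gene of the beta3 subunit, was the highest, with 35 to 90 reads per library, at 0.912 ± 0.122 FPKM in control and 0.863 ± 0.148 in cocktail, and Chrng, of the muscle gamma subunit, was listed at 0 in all 12 libraries. Chrna3 and Chrnb4, the neighbours of Chrna5, were at 0.301 ± 0.0806 and 0.0698 ± 0.0523 FPKM in control. Together the 12 summed to 2.20 to 2.58 FPKM per control library, well under the nicotinic sum of 27.0 to 31.8 FPKM for Chrna4, Chrna5, Chrna7 and Chrnb2.

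Of 14 chaperones and Ly6-type modulators of nicotinic receptors measured, 11 reached 1 FPKM and were tested, and 8 of these lay below 0. Vsnl1, a calcium sensor, was the highest at a mean of 305.0 FPKM over the 12 libraries, with a difference of 0.075 (SE 0.0681). Lynx1, a membrane-anchored modulator that dampens nicotinic currents, had the smallest p of the list, with a difference of -0.078 (SE 0.0509, limma adjusted p = 0.783).

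In the Gq pathway of the M1, M3 and M5 receptors, 15 of 18 genes were tested and 9 lay below 0. Prkcb, a protein kinase C, had the highest mean at 174.3 FPKM and a difference of -0.0004 (SE 0.0616), and Dgkz, a kinase that removes diacylglycerol, had the smallest p, with -0.082 (SE 0.0466, limma adjusted p = 0.743). In the Gi/o pathway of M2 and M4, 14 of 15 were tested and 8 lay below 0. Gnao1, the alpha subunit of Go, had the highest mean at 236.0 FPKM and a difference of 0.038 (SE 0.0523), and Adcy1, a calmodulin-stimulated adenylyl cyclase, the smallest p, with -0.076 (SE 0.0420, limma adjusted p = 0.724).

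Of the 8 genes of receptor desensitisation, all tested, 6 lay below 0. Csnk1a1, a casein kinase, had the highest mean at 95.9 FPKM, with a difference of 0.092 (SE 0.0561). Grk6, a kinase of activated G protein-coupled receptors, had the smallest p, with -0.084 (SE 0.0505, limma adjusted p = 0.769).

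Genes of acetylcholine synthesis and release were measured at low levels. Chat, the synthesising enzyme, was at 0.132 ± 0.0498 FPKM in control and Slc18a3, the vesicular transporter, at 0.214 ± 0.0823, from at most 10 reads per library. Ache, the degrading enzyme, was at 23.2 ± 3.01 FPKM in control and 22.1 ± 1.12 in cocktail, with a difference of -0.061 (SE 0.0613). Prima1, its membrane anchor, had the smallest p of this list, with 0.17 (SE 0.0874, limma adjusted p = 0.693) from 8 to 36 reads per library.

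**Figure D4:**
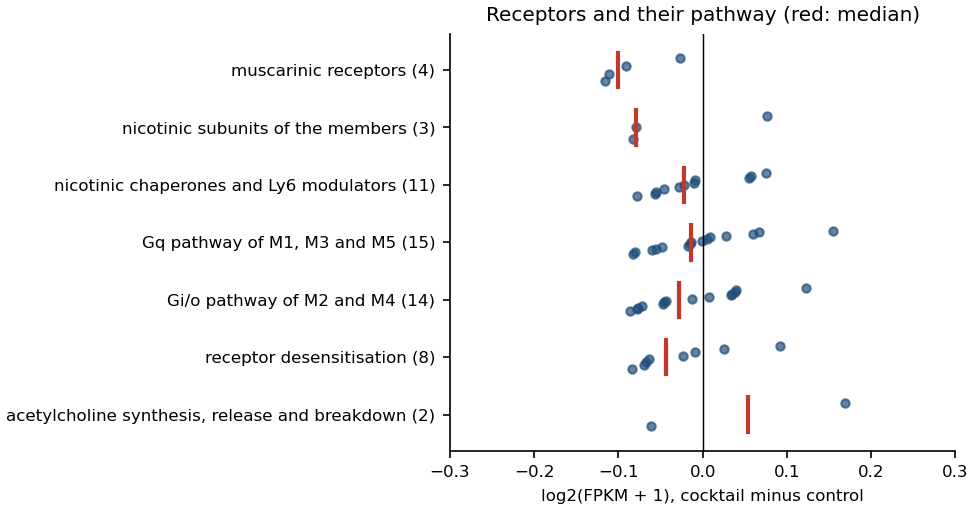
Difference in log2(FPKM + 1), cocktail minus control (horizontal), for tested genes of each list (vertical, number tested in brackets), 1 point per gene and a red line at the median. The receptor genes and the 5 lists with tested genes all lie between -0.12 and 0.17, and none was called.

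The tissue label was checked by marker genes. Excitatory cortical neuron markers summed to 2460 to 2813 FPKM in control and 2355 to 2783 in cocktail libraries, and those of inhibitory neurons to 480 to 540 and 511 to 557. Thalamus markers summed to 22.5 to 28.0 FPKM in control and 24.7 to 28.7 in cocktail, with 5 of 6 at 1 FPKM or more. Hippocampus markers summed to 40.8 to 49.2 and 35.6 to 55.4, with 3 of 6 at that level. Whether these and the striatal values came from neighbouring tissue was not tested. Markers of basal forebrain cholinergic neurons summed to 0.472 to 0.812 FPKM in control and 0.274 to 0.847 in cocktail. Isl1 and Lhx8 were at 0 in 10 of 12 libraries each, Gbx1 in 7 and Slc18a3 in 1, whereas Chat and Slc5a7 were above 0 in all 12. Across all marker lists 1 gene was called, Ctgf, a secreted protein of deep-layer neurons. It was higher in cocktail (0.44, SE 0.0791, limma adjusted p = 0.0132), while the other 5 genes of its list were not called. Over all 12032 loci tested 1.50% were called, so this 1 gene is not read as a result about deep-layer neurons. The 6 oligodendrocyte markers lay above 0 (0.072 to 0.16) and the 6 inhibitory markers too (0.031 to 0.10), with 0 called in either list, and their part in the small differences of the receptors was not tested.

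The loci whose level followed that of Chrm1, the receptor gene with the smallest p, most closely over the 12 libraries were Foxk1 (Pearson r = 0.918), Gga2 (0.904) and Kcnk9 (0.893). They encode a forkhead transcription factor, an adaptor of the trans-Golgi network and a two-pore potassium channel. The 12 points share 6 mice, 2 treatments and the scaling of each library, so these values are a description. Foxk1 was at 13.3 FPKM in control and 12.1 in cocktail on average, Gga2 at 7.57 and 6.92, and Kcnk9 at 20.9 and 18.2.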

How the data were processed

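Polyadenylated RNA of 12 dissected auditory cortices was read from 1 end, 50 bp per read, in 1 lane. The authors removed ribosomal reads with BWA 0.6.1, aligned the rest to mm10 with TopHat 1.4.1, keeping reads with 1 placement, and estimated FPKM with Cufflinks 1.3.0. This estimate was corrected for bias, and its denominator held fragments on RefSeq genes with a protein coding transcript. Each deposited FPKM comes with a confidence interval. The authors also counted reads with HTSeq 0.6.1p1 and compared the groups with DESeq2 1.6.3. From that deposited table, which holds mean counts as a normalized signal beside fold changes and p-values, the mean count served only to check the reads recovered here.

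FPKM was used as deposited. The interval equals 2 Poisson standard deviations, which gives the reads behind a value. Whole numbers, within 0.05, made up 82.8% of the 36412 values under 20 reads. Of 10702 genes whose mean count by the authors was at least 100, 96.3% lay within 10% of that count. Genes with a lower mean count were not in this second check. Libraries held 10601067 to 19768881 such reads in control and 13544297 to 17643462 in cocktail. Intervals from reads cover counting error only.

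Loci with a mean of at least 1 FPKM were tested as log2(FPKM + 1), a scale that understates changes of low genes. The model, in limma 3.58.1 under R 4.3.3, held treatment and mouse, its variance prior followed the mean level, and p-values were adjusted by Benjamini and Hochberg with a threshold of 0.05. The code of the fit was first run on simulated data. There all genes had the same settings of spread, so that run does not show how the fit performs on these receptor genes. The 6 differences of a single gene were also tested by flipping their signs in all ways (exact, two-sided permutation test). Labels give the mouse of each library. After the group means were taken off, hemispheres of the same mouse correlated at 0.216 to 0.406 across genes (6 pairs), and those of different mice at -0.42 to 0.445 (30 pairs). Libraries of 1 condition differed by a chi-square of 7.8 or more per gene, so none was a copy of another.

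The members and gene lists were chosen with earlier results of these data known. Named are all 9 receptors, in each pathway list the gene with the highest mean and that with the smallest p, marker genes called or at 0 in every library, Fos, and the 3 loci most like the receptor gene with the smallest p. Isl1, Lhx8, Gbx1, Chat, Slc18a3, Slc5a7, Chrna3 and Chrnb4 were named after their values were seen. Alternatives were no block, another pseudocount, other filters and scalings, no variance trend, voom on recovered reads and leaving out each mouse. The authors' read counts of each library were not used here, so voom on recovered reads was the one count-based test. Python 3.11.15 with matplotlib 3.10.9 drew the figures.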

Additional observations from a re-analysis of the deposited data

Results flagged for a closer look

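The control and cocktail levels and the differences of the 9 receptor genes gave 27 sets of 6 values. Of these, 2 held a value far from the other 5. Chance gives about 1 in 20, or 1.35 of the 27 sets, so 2 is near the number from chance. Chrna4 was at 14.3 FPKM in the control library of mouse 6, against 10.1 to 11.3 FPKM in the other 5 control libraries, a gap of 0.703 of the whole range. The cocktail library of the same mouse was at 11.0 FPKM. The control value of mouse 6 rests on 646 of 10601067 recovered reads, and that of mouse 1 (10.97 FPKM) on 1109 of 19768881. How far mouse 6 stands apart in reads was not tested. Chrna5 was at 0.387 FPKM in the cocktail library of mouse 2, against 0.854 to 1.13 in the other 5, a gap of 0.628 of the range, and this value rests on 17 reads with an exact Poisson 95% interval of 0.225 to 0.620 FPKM.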

How the results depend on the processing

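Under 15 alternatives, 0 of the receptor genes and 0 of the pathway genes were called in any, the fit without the block included. Of 104 refitted values of the 7 receptor genes tested, 102 kept the direction and stayed above the threshold, with a lowest adjusted p of 0.338. The other 2 were those of Chrm4, whose difference ran from -0.0585 to 0.0248 when each mouse was left out, and was above 0 without mouse 1 (0.0248) and without mouse 6 (0.0139). The number of loci called was 180, and 88 with no replicate block (pairing by mouse dropped). It ran from 104 (without mouse 4) to 183 when each mouse was left out. The order of the control means was the same in each run, and 4 neighbour pairs had separate ranges with median-of-ratios scaling and 5 to 6 when a mouse was left out. Read counts made by the authors for single libraries were not used, so apart from voom on recovered reads no count test was run, and levels from reads per length were not computed, because the files give no transcript lengths. Chrm5 and Chrna5 had the fewest reads, 1 to 31 and 17 to 62 per library, and their differences spread 2.94 and 2.08 times as widely as counting alone gives.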
